A study of Mus musculus with 8 samples.

Results

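The triad and calcium release genes are 10 genes of the deposited table of 48328 genes: Ryr1, Cacna1s, Cacnb1, Stac3, Jph1, Jph2, Casq1, Casq2, Trdn and Jsrp1. They were taken by symbol from GENCODE M21 as the genes of the ryanodine receptor, the dihydropyridine receptor, the junctophilins, the calsequestrins and the proteins that tie them together. The genotype difference in FPKM of Jph1 and Casq1 was known before the set was drawn up: both were chosen by their lower FPKM in K320E-skm than in wild-type muscle, so that difference is given as a description with no test. All 10 passed the filter on low values, which required 1 FPKM in 4 of the 8 libraries and kept 10521 genes. FPKM are fragments per kilobase of transcript, scaled to the mapped fragments of the library, so levels of different genes can be set side by side.

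In skeletal muscle the action potential runs down the transverse tubule, where the dihydropyridine receptor senses voltage and pulls open the ryanodine receptor in the facing membrane of the sarcoplasmic reticulum. Junctophilins hold the tubule and the reticulum together at this contact, called the triad. Calsequestrin stores calcium inside the reticulum, and triadin and JP-45 link the store to the channels.

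The libraries were made from total RNA of the lower part of the tibialis anterior, a muscle of mainly fast fibres at the front of the shin, of C57BL/6J mice aged 24 months. Each genotype, K320E-skm and wild-type, had 4 libraries, numbered 1 to 4 as in the labels, and each had 2 libraries labelled male and 2 labelled female. K320E-skm muscle expresses the K320E mutant of Twinkle, which Twnk encodes and which unwinds mitochondrial DNA for its replication. The driver of the transgene is not given in the sources used here, and no treatment is named for either genotype.

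Summed FPKM lay between 731824 and 858029 per library, the table holds no read counts, and the absolute depth is therefore unknown. Relative depths estimated from the lowest values spanned 1.00 to 1.31. Twnk lay between 3.82 and 5.06 FPKM in the 4 K320E-skm libraries and between 2.16 and 2.70 FPKM in the 4 wild-type libraries. The library labelled male as K320E-skm 4 had 10.2 FPKM of the female transcript Xist and 0.0117 FPKM of the Y-linked Ddx3y, against its label. Results on the sex label are therefore given with and without that library. The genotype fit used the sex labels as given. By these transcripts only K320E-skm 1 was male among K320E-skm libraries, and wild-type 1 and 3 among wild-type libraries. Sex by transcripts was thus not balanced between the genotypes. Genes of the mitochondrial genome took 53.8% to 59.8% of the summed FPKM of K320E-skm libraries and 44.0% to 56.3% of that of wild-type libraries, and the median of all tested genes was lower in K320E-skm muscle by a log2 fold change of −0.14. Differences are therefore also given relative to that median gene. The fast fibre genes Tnnt3 and Tnni2 were at 5229 FPKM or more in every library, whereas of 7 heart markers Nppa, Myl7 and Mybpc3 were at 0.0508 FPKM or less and Myh6 at 0.341 FPKM or less in all 8. The other heart markers, some of which skeletal muscle also expresses, reached 1.06 FPKM for Tnni3, 4.11 FPKM for Tnnt2 and 89.6 FPKM for Sln. Myh4, which encodes the fastest myosin heavy chain, had a listed FPKM of 0 for 4 libraries (K320E-skm 2, 3 and 4 and wild-type 4) and 2965 FPKM or more for the other 4.

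The promoter sequences available in the RefSeq table (GRCm38.p6) covered 6 of the 10 genes, and Jph1, Stac3, Trdn and Jsrp1 had no entry. The windows of both calsequestrins and of Jph2 are shown, because the calsequestrins differ in level and because these 3 windows lie outside the annotated gene. Another Jph2 entry, chr2:163397974-163398223, lies partly inside the annotated gene and is not shown. Each is the 250 bases before the annotated start, 5′ to 3′ on the strand of the gene, with E-boxes (CANNTG, searched on both strands) in capitals. The windows are chr1:172219896-172220145 on the minus strand for Casq1, chr3:102086165-102086414 on the plus strand for Casq2 and chr2:163397994-163398243 on the minus strand for Jph2.
Casq1: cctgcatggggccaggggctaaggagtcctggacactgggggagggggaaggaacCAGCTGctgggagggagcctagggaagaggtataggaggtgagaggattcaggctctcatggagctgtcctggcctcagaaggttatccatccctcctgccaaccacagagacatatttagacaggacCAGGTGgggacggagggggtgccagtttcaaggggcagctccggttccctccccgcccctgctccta
Casq2: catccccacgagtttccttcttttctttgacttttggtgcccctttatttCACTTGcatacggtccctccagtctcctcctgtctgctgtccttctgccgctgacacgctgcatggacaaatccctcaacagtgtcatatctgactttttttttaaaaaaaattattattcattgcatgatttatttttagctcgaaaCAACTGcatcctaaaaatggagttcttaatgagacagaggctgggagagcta
Jph2: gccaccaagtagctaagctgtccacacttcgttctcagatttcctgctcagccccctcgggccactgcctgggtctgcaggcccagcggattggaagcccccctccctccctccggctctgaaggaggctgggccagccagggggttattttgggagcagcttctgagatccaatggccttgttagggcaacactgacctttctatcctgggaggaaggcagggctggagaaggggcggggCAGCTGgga
E-boxes are sequences that myogenic factors such as MyoD can bind. At least 1 E-box was in all 3 windows and in 66.2% of the 32851 promoter windows of the table. Its form CAGCTG was in the windows of Casq1, 195 bases before the start, and of Jph2, 9 bases before it, but not in that of Casq2, and 13% of all windows held it. In the Jph2 entry not shown, CAGCTG lies 29 bases before the start. The Casq2 window held 1 match to the MEF2 motif, 69 bases before the start, which 2.92% of all windows held, and the other windows shown held none. GC content was 61.6% for Casq1, 41.6% for Casq2 and 62% for Jph2.

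In wild-type muscle these genes were among the more abundant transcripts, and their levels spread widely. Casq1, a calsequestrin of skeletal muscle fibres, averaged 633 ± 73.0 FPKM (SD, n = 4) and was higher than 99.2% of tested genes. Trdn followed with 199 ± 26.3 FPKM, Jsrp1 with 136 ± 25.6 FPKM and Ryr1 with 102 ± 17.2 FPKM. Below them lay Cacna1s at 82.0 ± 12.8 FPKM, Stac3 at 76.6 ± 18.1 FPKM and Jph1 at 53.5 ± 7.05 FPKM. The lowest were Jph2 at 46.7 ± 13.0 FPKM, Cacnb1 at 38.2 ± 2.83 FPKM and Casq2, a calsequestrin of slow and cardiac muscle, at 20.3 ± 2.16 FPKM, still higher than 85.4% of tested genes.

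Within each wild-type library this order held for most neighbours. The ranges of Casq1 and Trdn were apart, as were those of Jsrp1 and Ryr1, of Stac3 and Jph1, and of Cacnb1 and Casq2. The order of Cacna1s over Stac3 and of Jph2 over Cacnb1 held in 3 of 4 libraries. In K320E-skm muscle Cacnb1 stood above both junctophilins by its mean, 38.9 FPKM against 34.1 for Jph1 and 30.6 for Jph2. It was above Jph2 in all 4 K320E-skm libraries and above Jph1 in 3 of them.

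**Figure D1:**
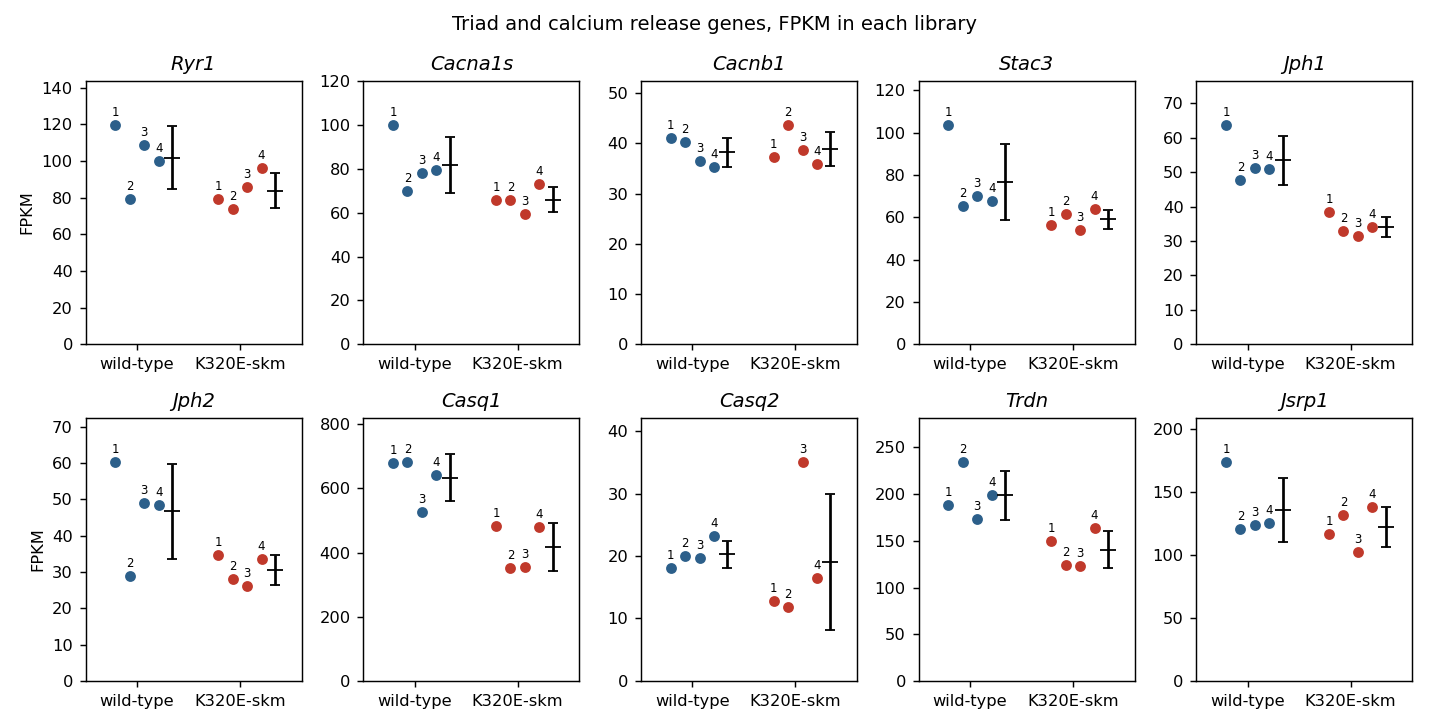
FPKM of the 10 triad and calcium release genes in the 8 libraries; points are libraries, numbered as in the labels, and the bars are the mean and SD of 4 libraries. Each axis starts at 0. The Jph1 points of K320E-skm muscle lie between 31.3 and 38.3 FPKM, below all wild-type points, whereas the Cacnb1 points of the genotypes overlap.

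Set against wild-type muscle, 9 of the 10 genes had lower means in K320E-skm muscle, Jph1 and Casq1, chosen for being lower, among them. Of the 8 other genes 7 had a log2 fold change below 0, where 79.5% of all tested genes did. The median log2 fold change of these 8 was −0.28, against −0.14 over all tested genes, and with the chosen genes it was −0.32 over all 10. Both junctophilins, Casq1 and Trdn stood lowest, at 0.638 to 0.707 times the wild-type mean. The channel Ryr1 and the voltage sensor Cacna1s were at 0.823 and 0.806 times the wild-type mean, and Cacnb1 at 1.02 times. Of the 8 genes not chosen for their fall, limma fitted over the whole table called 0 (Benjamini-Hochberg adjusted p under 0.05), as it did 0.019% of tested genes. At an unadjusted p under 0.05, 2 of the 8, Jph2 and Trdn, were lower, and 12.0% of tested genes were lower at that level. The libraries did not overlap for 2 of the 8, Stac3 and Trdn, both lower in K320E-skm muscle, as for 9.59% of tested genes. Relative to the median gene 7 of the 8 were lower, Jsrp1 by less than 0.01, where 50.0% of tested genes are by definition.

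With the libraries rescaled, the median of all tested genes moved to 0.02 (median-ratio), −0.01 (quantile) and 0.01 (genes outside the mitochondrial genome). Of the 8 genes not chosen for their fall, 6 were then below 0 after median-ratio rescaling, where 46.0% of tested genes were, with a median of −0.085. After rescaling to genes outside the mitochondrial genome 6 of the 8 were below 0, where 48.6% of tested genes were, with a median of −0.10. After quantile normalization 7 were below 0, against 51.8% of tested genes, with a median of −0.19. At an unadjusted p under 0.05, 0 of the 8 were lower after median-ratio rescaling (3.72% of tested genes) and 0 after rescaling to genes outside the mitochondrial genome (3.13%). After quantile normalization 1, Jph2, was lower at that level (5.16%). Of these 8, 0 had libraries without overlap in the lower direction after median-ratio rescaling (2.31% of tested genes) or after rescaling to genes outside the mitochondrial genome (2.01%).

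**Figure D2:**
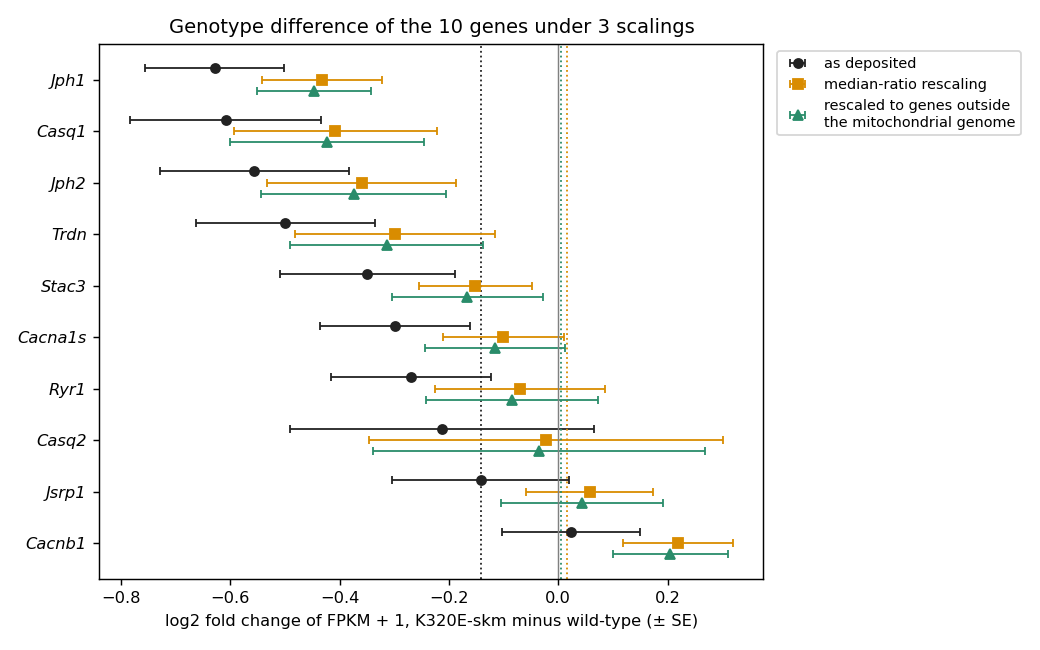
Log2 fold change of FPKM + 1, K320E-skm minus wild-type, with its SE (limma, n = 4 each) for the 10 genes as deposited, after median-ratio rescaling and after rescaling to genes outside the mitochondrial genome; dotted lines mark the median of all tested genes under each. The order from Jph1 to Cacnb1 is the same under all 3, and every value is higher after either rescaling, with Jph1 at −0.43 and −0.45 and Cacnb1 at 0.22 and 0.20.

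Ryr1 (ENSMUSG00000030592, chromosome 7, 29003344 to 29125179, GRCm38) encodes the calcium release channel of the sarcoplasmic reticulum. It measured 79.4, 73.7, 85.7 and 96.3 FPKM across K320E-skm libraries 1 to 4, and wild-type libraries 1 to 4 gave 119.7, 79.1, 109 and 99.8 FPKM. Wild-type 2 lay inside the K320E-skm range, and the other 3 wild-type libraries lay above all K320E-skm libraries. On the log2 scale the difference was −0.27 (SE 0.15), and limma gave an adjusted p of 0.442. Relative to the median gene it was −0.13. The antisense gene Gm26604 overlaps Ryr1 by 9540 bases and averaged 4.26 FPKM, and the strand setting of the authors' counting is not given in the sources used here.

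The other release channels were at low levels. Ryr3, an isoform found in few adult muscles, averaged 0.150 ± 0.0551 in K320E-skm against 0.180 ± 0.0948 FPKM in wild-type muscle (n = 4 each). Among the inositol trisphosphate receptors Itpr1 averaged 4.64 ± 0.564 against 6.15 ± 1.48 FPKM, and Itpr2 averaged 3.14 ± 0.496 against 2.77 ± 0.637 FPKM. Itpr3 averaged 0.524 ± 0.0689 against 0.712 ± 0.292 FPKM. Of the 2 tested genes of this list, Itpr1 and Itpr2, limma called 0, with 0 at an unadjusted p under 0.05, where 13.1% of all tested genes were.

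Cacna1s (ENSMUSG00000026407, chromosome 1, 136052750 to 136119822) encodes the pore and voltage sensor of the dihydropyridine receptor. It measured 65.9, 65.7, 59.6 and 73.2 FPKM across K320E-skm libraries 1 to 4, and wild-type libraries 1 to 4 gave 100.1, 70.05, 78.2 and 79.6 FPKM. The genotypes overlapped only by wild-type 2, which lay below K320E-skm 4. The genotypes differed on the log2 scale by −0.30 (SE 0.14, limma adjusted p = 0.385). The antisense gene Gm37759, at a mean of 13.5 FPKM, overlaps Cacna1s by 3246 bases.

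Cacnb1 (ENSMUSG00000020882, chromosome 11, 98001508 to 98023034) encodes the beta subunit that brings the voltage sensor to the triad. It measured 37.2, 43.7, 38.6 and 35.9 FPKM across K320E-skm libraries 1 to 4, and wild-type libraries 1 to 4 gave 41.0, 40.2, 36.4 and 35.2 FPKM. The ranges of the 2 genotypes were nearly the same, and its log2 fold change was 0.02 (SE 0.13, limma adjusted p = 0.941). It was the 1 gene of the 10 above the median gene, by 0.16. After median-ratio rescaling the lowest K320E-skm library was higher than the highest wild-type library, with means of 41.3 and 35.4 rescaled FPKM and a log2 difference of 0.22 (limma adjusted p = 0.561; 0.520 to 0.977 over all alternatives). The share of all tested genes without overlap in the higher direction after median-ratio rescaling was not counted. After rescaling to genes outside the mitochondrial genome the genotypes overlapped for Cacnb1.

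Stac3 (ENSMUSG00000040287, chromosome 10, 127501686 to 127508823) encodes the adaptor that the voltage sensor needs to reach and work at the triad. It measured 56.2, 61.5, 54.1 and 64.1 FPKM across K320E-skm libraries 1 to 4, and wild-type libraries 1 to 4 gave 103.7, 65.2, 70.1 and 67.6 FPKM. All K320E-skm libraries lay below all wild-type libraries, but the gap between K320E-skm 4 and wild-type 2 was small and wild-type 1 stood far above the rest. Its log2 fold change was −0.35 (SE 0.16, limma adjusted p = 0.385), and −0.21 without wild-type 1. After median-ratio rescaling the genotypes overlapped.

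Among the other subunits of the receptor, Cacna2d1, the alpha2delta subunit, was at 31.5 ± 3.41 in K320E-skm against 39.9 ± 2.99 FPKM in wild-type muscle (log2 fold change −0.33, SE 0.13, limma adjusted p = 0.354). As deposited its libraries did not overlap, as held in the lower direction for 9.59% of all tested genes. After median-ratio rescaling they overlapped. Cacng6, a gamma subunit, averaged 17.1 ± 1.80 against 22.6 ± 5.44 FPKM. Cacng1, the main gamma subunit of skeletal muscle, averaged 97.8 ± 14.5 against 97.6 ± 16.9 FPKM. Cacna1c, the cardiac counterpart of Cacna1s, was under the filter, at 0.536 ± 0.114 against 0.857 ± 0.101 FPKM. Of the 3 tested genes of this list, limma called 0, and 2, Cacna2d1 and Cacng6, were lower at an unadjusted p under 0.05, as were 12.0% of all tested genes. After median-ratio rescaling 0 of the 3 were lower at that level, where 3.72% of all tested genes were.

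Jph1 (ENSMUSG00000042686, chromosome 1, 16964560 to 17097889) encodes the main junctophilin of skeletal muscle. It measured 38.3, 32.9, 31.3 and 34.0 FPKM across K320E-skm libraries 1 to 4, and wild-type libraries 1 to 4 gave 63.8, 47.8, 51.3 and 51.0 FPKM. The highest K320E-skm library lay well below the lowest wild-type library. On the log2 scale the difference was −0.63 (SE 0.13), and −0.49 relative to the median gene. After rescaling to genes outside the mitochondrial genome the means were 36.5 in K320E-skm against 50.2 in wild-type muscle, and the libraries remained apart, as they did after median-ratio rescaling. Jph1 was chosen for this difference, so no test is given.

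Jph2 (ENSMUSG00000017817, chromosome 2, 163336242 to 163397993) encodes the junctophilin shared by heart and skeletal muscle. It measured 34.5, 28.1, 26.2 and 33.7 FPKM across K320E-skm libraries 1 to 4, and wild-type libraries 1 to 4 gave 60.4, 29.0, 49.0 and 48.5 FPKM. Wild-type 2 lay among the K320E-skm libraries, and the other 3 wild-type libraries lay far above them. The genotypes differed on the log2 scale by −0.56 (SE 0.17, limma adjusted p = 0.313). Without wild-type 2 it was −0.72, with a limma adjusted p of 0.268, and over all alternatives the adjusted p lay between 0.218 and 0.705. Jph4 was under the filter, at 0.0195 in K320E-skm against 0.0385 FPKM in wild-type muscle.

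Casq1 (ENSMUSG00000007122, chromosome 1, 172209894 to 172219868) measured 483, 352, 355 and 481 FPKM across K320E-skm libraries 1 to 4, and wild-type libraries 1 to 4 gave 679.9, 684, 528 and 642 FPKM. The lowest wild-type library, number 3, lay just above K320E-skm 1 and 4. Its log2 fold change was −0.61 (SE 0.18), and −0.47 relative to the median gene. After rescaling to genes outside the mitochondrial genome wild-type 3 fell below K320E-skm 4, so the genotypes overlapped. Casq1 alone made up 38.0% to 45.0% of the summed FPKM of the 10 genes in K320E-skm libraries and 42.6% to 49.2% in wild-type libraries.

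Casq2 (ENSMUSG00000027861, chromosome 3, 102086415 to 102146514) measured 12.8, 11.8, 35.1 and 16.4 FPKM across K320E-skm libraries 1 to 4, and wild-type libraries 1 to 4 gave 18.0, 20.0, 19.7 and 23.2 FPKM. In 3 of the K320E-skm libraries it lay below every wild-type library, and in K320E-skm 3 it lay above every one. On the log2 scale the difference was −0.21 (SE 0.28, limma adjusted p = 0.734), −0.54 without K320E-skm 3 (adjusted p = 0.705) and 0.06 without K320E-skm 2 (adjusted p = 0.903). K320E-skm 3 also had the highest sum over 9 slow fibre markers, 201 FPKM, with sums of 64.2 to 135 FPKM in the other K320E-skm and 53.8 to 114 FPKM in the wild-type libraries. Of the 8 tested slow fibre markers 7 were above 0 in log2 fold change, with a median of 0.34, and none was listed at 0. K320E-skm 3 was the highest of all libraries for each of these tested markers except Myl3, so that library weighs on the median. Their part in the Casq2 values was not tested. In bulk tissue fewer fibres of a type and less RNA per fibre cannot be told apart.

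The 12 fast fibre markers summed to 30997 to 43061 in K320E-skm against 42302 to 49637 FPKM in wild-type libraries. Without Myh4, the remaining 11 summed to 30997 to 40095 and 41566 to 46100 FPKM, with no overlap as deposited. The factors of median-ratio rescaling were 0.903 for K320E-skm 1 and 1.32 for wild-type 1. Divided by these factors, the sum of K320E-skm 1 exceeds that of wild-type 1, so the genotypes then overlap. As deposited, 9 of the 11 were below 0, where 79.5% of all tested genes were, with a median log2 fold change of −0.32. The 2 above 0 were the fast myosin heavy chains Myh1 and Myh2. Of the 11 markers, 0 passed the threshold of limma. The lowest Casq1 levels were in the libraries with the lowest fast fibre sums, K320E-skm 2 and 3. The part of fibre type in the Casq1 values was not tested.

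**Figure D3:**
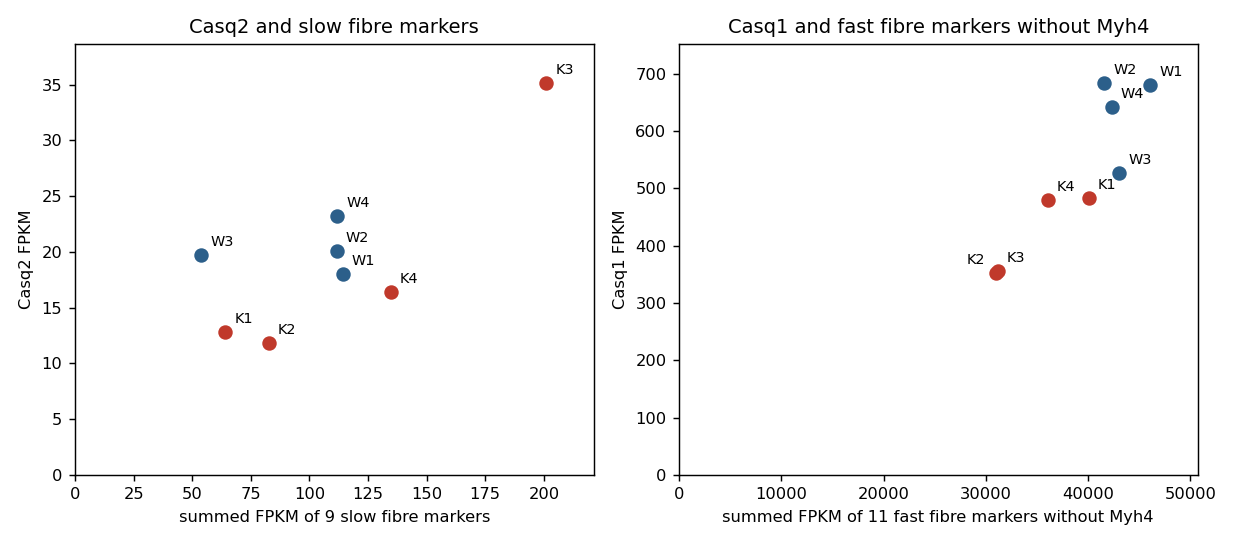
Left, Casq2 FPKM against summed FPKM of 9 slow fibre markers; right, Casq1 FPKM against summed FPKM of 11 fast fibre markers without Myh4; each point is 1 library (K, K320E-skm, red; W, wild-type, blue). K320E-skm 3 is highest in both measures on the left at 35.1 and 201 FPKM, and on the right K320E-skm 2 and 3 are lowest.

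Trdn (ENSMUSG00000019787, chromosome 10, 33080554 to 33476709) encodes triadin, which anchors calsequestrin to the ryanodine receptor. It measured 149.9, 125, 123 and 164 FPKM across K320E-skm libraries 1 to 4, and wild-type libraries 1 to 4 gave 188, 235, 173 and 199 FPKM. All K320E-skm libraries lay below all wild-type libraries. The genotypes differed on the log2 scale by −0.50 (SE 0.16, limma adjusted p = 0.335; 0.218 to 0.750 over all alternatives). After either rescaling the genotypes overlapped, with log2 fold changes of −0.30 and −0.31.

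Jsrp1 (ENSMUSG00000020216, chromosome 10, 80808496 to 80813498) encodes JP-45, which binds both the voltage sensor and calsequestrin. It measured 117, 132, 103 and 138 FPKM across K320E-skm libraries 1 to 4, and wild-type libraries 1 to 4 gave 174, 120.2, 123 and 125 FPKM. Apart from wild-type 1, the wild-type libraries lay inside the K320E-skm range. The log2 fold change of −0.14 (SE 0.16, limma adjusted p = 0.694) was that of the median gene, and it was 0.06 after median-ratio rescaling.

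The 10 genes differed in their pattern across libraries. Likeness was measured as the root mean square difference of log2(FPKM + 1) after centring each gene on its mean over the 8 libraries. The closest pair was Cacna1s and Stac3, at 0.085. Next came Cacna1s with Jsrp1 at 0.109, Casq1 with Trdn at 0.111, and Ryr1 with Cacna1s at 0.122. Casq2 stood apart, at 0.438 or more from each of the other 9 genes.

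Wild-type 2 was low for some genes and high for others. In it Ryr1, Cacna1s, Stac3, both junctophilins and Jsrp1 were the lowest of the 4 wild-type libraries, whereas Casq1 and Trdn were the highest, and Cacnb1 and Casq2 ranked second. Wild-type 1 was the highest wild-type library for Ryr1, Cacna1s, Cacnb1, Stac3, Jph1, Jph2 and Jsrp1. That library also had the smallest share of the mitochondrial genome, 44.0%, and the most genes at 1 FPKM, 11581. After median-ratio rescaling it was above its genotype mean for 4 of the 10 genes, against 8 as deposited. In the K320E-skm libraries 7 of the 10 genes were above their genotype mean in number 4 and 2 in number 3.

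**Figure D4:**
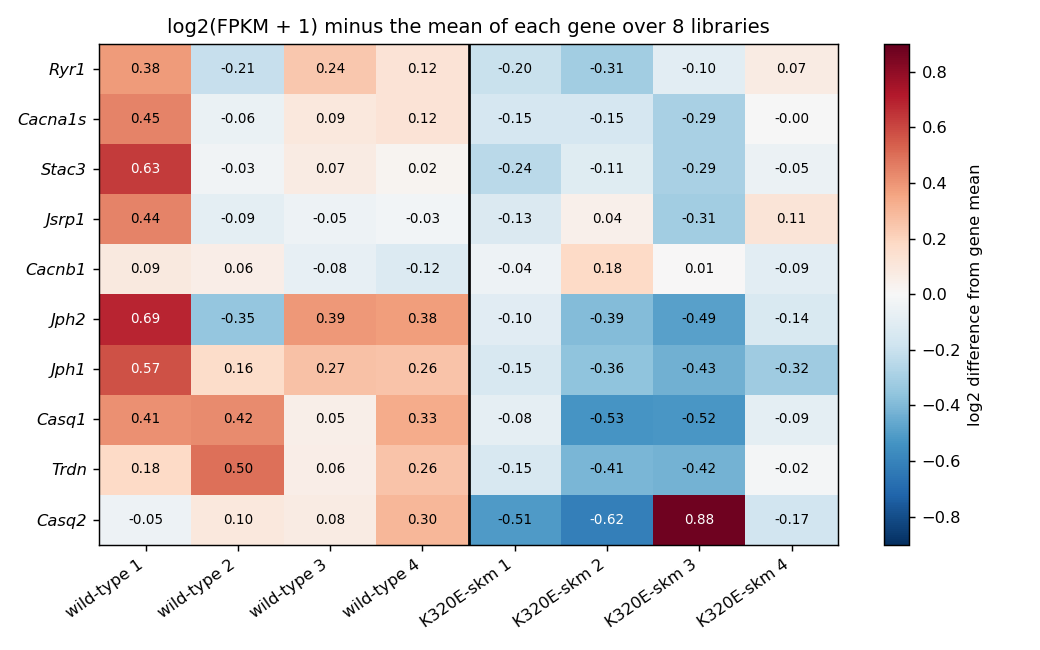
Log2(FPKM + 1) of the 10 genes in the 8 libraries, each gene minus its mean over all 8; red is above and blue below the mean. In wild-type 2 Trdn is 0.50 above and Jph2 0.35 below its mean, and Casq2 is 0.88 above its mean in K320E-skm 3.

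Over all 9599 other tested protein-coding genes, the 3 genes closest to Casq1 were Tnrc6a at 0.104, Ube2d1 at 0.107 and Trdn at 0.111. Those closest to Jph1 were Plekhb1 at 0.075, Trappc6b at 0.091 and Zfp386 at 0.095. Those closest to Ryr1 were Asb18 at 0.076, Vhl at 0.080 and Rubcn at 0.081. The 8 points share their libraries and the genotype difference, and for Jph1 and Casq1 that difference is the one they were chosen for.

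Ratios of genes within a library do not depend on how libraries are scaled. Of 7 ratios that hold neither Jph1 nor Casq1, none passed an exact two-sided permutation test between the genotypes, whose smallest p is 0.0286 for 4 against 4. For each molecule of Ryr1 message there was 0.790 of Cacna1s in K320E-skm against 0.808 in wild-type muscle (geometric means per length, log2 difference −0.03, SE 0.10, exact p = 0.771). Stac3 stood at 0.893 and 0.925 of Cacna1s (log2 difference −0.05, SE 0.07, exact p = 0.571). These were the 2 ratios with the smallest error. Cacnb1 stood at 0.588 of Cacna1s in K320E-skm against 0.469 in wild-type muscle, a log2 difference of 0.33 (SE 0.14, exact p = 0.0857), and 0.400 after adjustment over the 7 ratios. After that adjustment a lone ratio at the smallest possible p would not pass 0.05 either. Jph2 stood at 0.365 and 0.449 of Ryr1, a log2 difference of −0.30 (SE 0.15, exact p = 0.114).

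Of the other ratios to Ryr1, Trdn stood at 1.67 in K320E-skm against 1.96 in wild-type muscle (exact p = 0.457), and reached 2.97 in wild-type 2. Jsrp1 stood at 1.46 and 1.33 (exact p = 0.486) and Casq2 at 0.206 and 0.200 (exact p = 0.886). As a description, Jph1 stood at 1.12 times Jph2 in K320E-skm against 1.18 times in wild-type muscle, with 1.65 in wild-type 2. Casq1 stood at 24.0 times Casq2 in K320E-skm against 31.2 times in wild-type muscle, and at 10.1 times in K320E-skm 3. Jph1 stood at 0.353 to 0.483 of Ryr1 in K320E-skm and 0.473 to 0.604 in wild-type libraries, which overlapped by 1 library.

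The sex label was not used to choose the genes. With genotype in the model, 8 of the 10 had higher values in libraries labelled male, as did 58.7% of tested genes, and the median of the 10 was 0.19 against 0.03 over all tested genes. Limma called 0 of the 10, and 0.0% of all tested genes, and 1 of the 10 had an unadjusted p under 0.05, as did 2.7% of tested genes. That gene was Jph2, with means of 44.4 ± 12.8 FPKM in the 4 libraries labelled male and 32.9 ± 10.4 FPKM in the 4 labelled female and a log2 difference of 0.42, male minus female (SE 0.17, limma adjusted p = 1.00). Without K320E-skm 4 the mean of the libraries labelled male was 48.0 ± 12.9 FPKM (n = 3) and the log2 difference 0.45 (limma adjusted p = 1.00). Without that library 7 of the 10 genes were higher in libraries labelled male, as were 59.6% of tested genes, with a median of 0.16, and Trdn went from 0.04 to −0.05. Limma then called 0 of the 10 and 5 of all tested genes, and Jph2 was again the 1 gene of the 10 with an unadjusted p under 0.05, as 4.88% of tested genes had.

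The test of whether the genotype difference itself differed between the sex labels called 0 of the 8 genes not chosen for their fall, and as deposited 0 had an unadjusted p under 0.05. Of all tested genes 0.019% were called and 2.27% had an unadjusted p under 0.05. Trdn had the largest estimate of the 8, 0.60 on the log2 scale (SE 0.28, limma adjusted p = 0.999). Its unadjusted limma p was 0.0676 as deposited, 0.0263 after median-ratio rescaling, 0.0102 after quantile normalization, 0.0367 after rescaling to genes outside the mitochondrial genome and 0.0258 with no filter on low values. Over all alternatives its estimate lay between 0.48 and 0.89 and its adjusted p between 0.574 and 1.00. In those 4 settings it was the 1 gene of the 8 with an unadjusted p under 0.05, as 2.59%, 2.97%, 2.16% and 3.26% of tested genes had. Casq1 had an estimate of 0.59 (SE 0.32), given as a description. Without K320E-skm 4, whose transcripts go against its label, Trdn was at 0.53 and Casq1 at 0.59. That fit leaves K320E-skm 1 as the only library labelled male of its genotype, so only the estimates are given.

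Further genes of excitation and calcium release were taken from 5 lists, in which 38 of 54 genes were tested. Limma called 0 of the 38 at the adjusted threshold, and 11 were lower and 0 higher at an unadjusted p under 0.05, where 12.0% of all tested genes were lower. After median-ratio rescaling 4 were lower and 1 higher, where 3.72% of all tested genes were lower. The share of all tested genes that were higher was not counted. As deposited, the median log2 fold change of the 38 was −0.23, and 26 lay below the median gene. For 7 the libraries did not overlap, all lower in K320E-skm muscle, as for 9.59% of all tested genes. After median-ratio rescaling this held for 1, Homer1, and for 2.31% of all tested genes, so the share in the lists was near that of all genes.

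The partners of the ryanodine receptor and the store proteins had the lowest median, −0.35 over 15 tested genes, of which 6 were lower at an unadjusted p under 0.05 (12.0% of all tested genes) and 0 passed over all genes. After median-ratio rescaling 4 of the 15, Homer1, Calm2, Calm3 and Selenon, were lower at that level (3.72% of all tested genes), and the median was −0.16. Abundant members were Tmem38a, the TRIC-A potassium channel of the reticulum, at 213 ± 16.8 in K320E-skm against 253 ± 23.2 FPKM in wild-type muscle, and Srl, the calcium-binding sarcalumenin, at 169 ± 10.4 and 192 ± 23.5 FPKM. Hrc, a calcium-binding protein of the reticulum lumen, averaged 122 ± 18.7 against 138 ± 22.1 FPKM.

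In 5 genes of this list all K320E-skm libraries lay below all wild-type libraries, as for 9.59% of all tested genes, and these are named after their values were seen. After median-ratio rescaling this held for 1 of them, Homer1. Homer1, a scaffold that binds the ryanodine receptor, averaged 12.3 ± 0.854 in K320E-skm against 18.6 ± 2.06 FPKM in wild-type muscle (log2 fold change −0.56, SE 0.12, limma adjusted p = 0.294). Calm2 and Calm3 encode calmodulin, which binds and regulates the ryanodine receptor, with Calm2 at 60.8 ± 10.96 against 98.9 ± 21.01 FPKM and Calm3 at 50.1 ± 7.64 against 78.2 ± 14.9 FPKM. Asph, whose products include junctin, a partner of triadin at the release channel, averaged 45.2 ± 4.80 against 60.2 ± 6.98 FPKM. Sypl2, the triad membrane protein mitsugumin 29, averaged 21.9 ± 1.17 against 28.6 ± 6.03 FPKM.

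Selenon, a selenoprotein of the reticulum linked to congenital myopathy, had the lowest log2 fold change of the list, −1.33 (SE 0.39, limma adjusted p = 0.310). It ranged from 4.73 to 17.9 FPKM over the K320E-skm libraries and from 14.4 to 37.1 FPKM over the wild-type libraries, which overlapped. Mrln, the calcium pump inhibitor myoregulin, was at 26.3 ± 12.7 against 48.3 ± 22.0 FPKM, also with overlap (log2 fold change −0.78, SE 0.37, limma adjusted p = 0.395). Selenon and Mrln are named here because of their values.

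**Figure D5:**
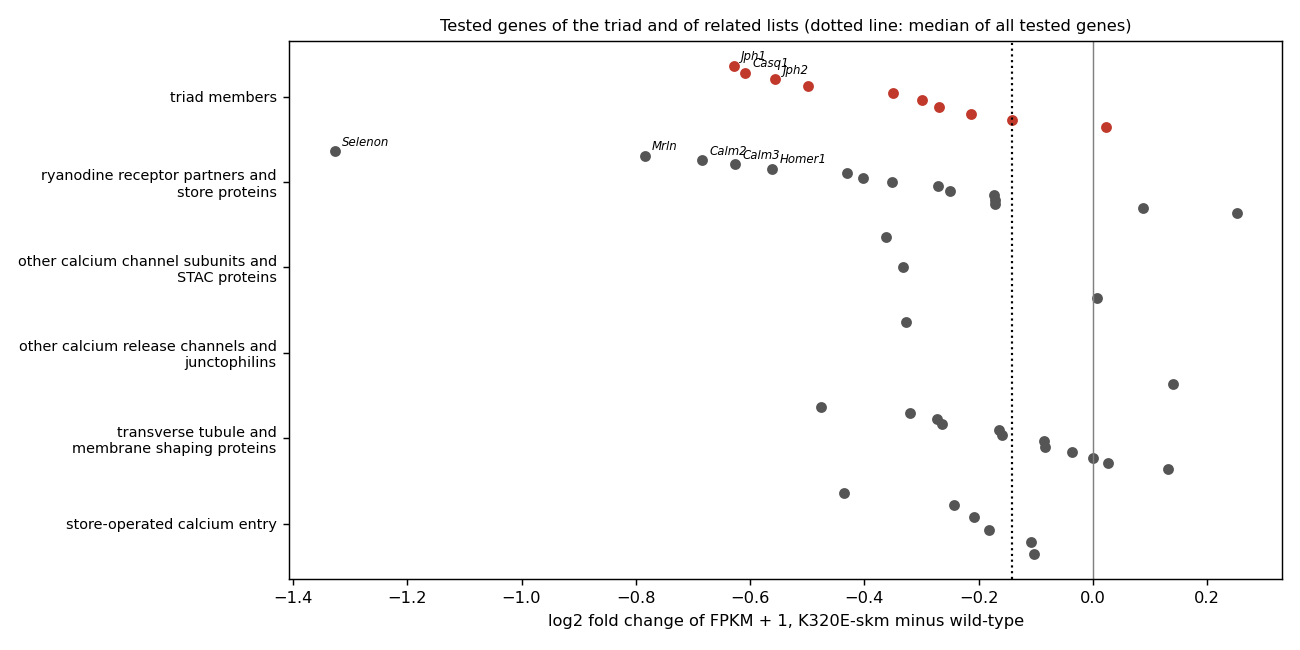
Log2 fold change of FPKM + 1, K320E-skm minus wild-type (n = 4 each), for the 10 triad and calcium release genes (red) and for the tested genes of 5 related lists (grey); each point is 1 gene, genes below −0.5 are named, and the dotted line is the median of all tested genes at −0.14. The points of the ryanodine receptor partners reach from Selenon at −1.33 to values above 0.

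Genes that shape the transverse tubule and its contacts stood near the median gene, with a median of −0.12 over 12 tested genes. Ank1, whose short muscle product ties the reticulum to obscurin, was the exception among the 4 most abundant (log2 fold change −0.48, SE 0.14, limma adjusted p = 0.310). It averaged 84.3 ± 11.4 in K320E-skm against 117 ± 13.7 FPKM in wild-type muscle. As deposited its libraries did not overlap, as held in the lower direction for 9.59% of all tested genes. After median-ratio rescaling they overlapped. Bin1, which bends the tubule membrane, averaged 96.9 ± 10.4 against 117 ± 14.7 FPKM. Tcap, the titin cap, averaged 978 ± 116 against 1099 ± 155 FPKM, and Myom1 of the M-band averaged 168 ± 26.8 against 179 ± 31.3 FPKM. Limma called 0 of the 12, and 2, Ank1 and Speg, were lower at an unadjusted p under 0.05, a share near the 12.0% of all tested genes. After median-ratio rescaling 0 were lower (3.72% of all tested genes) and 1, Dnm2, was higher at that level. The share of all tested genes higher at that level was not counted. Speg and Dnm2 are named after their values were seen.

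Genes of store-operated calcium entry, by which the reticulum is refilled from outside the fibre, had a median of −0.19 over 6 tested genes. The calcium sensor Stim1 averaged 20.6 ± 0.931 in K320E-skm against 23.6 ± 2.60 FPKM in wild-type muscle, and Stim2 averaged 5.54 ± 1.59 against 7.87 ± 2.27 FPKM. The channel Orai1 averaged 6.81 ± 0.431 against 7.48 ± 1.31 FPKM. Saraf, which restrains this entry, averaged 48.3 ± 2.37 against 56.8 ± 11.2 FPKM. Limma called 0 of the 6, and 1, Stim2, was lower at an unadjusted p under 0.05 (log2 fold change −0.43, SE 0.16, adjusted p = 0.338). At that level 12.0% of all tested genes were lower. After median-ratio rescaling 0 of the 6 were lower, where 3.72% of all tested genes were.

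The summed levels of other cell types' markers overlapped between the genotypes, and limma called 0 of the markers. Of the tested markers, all 9 macrophage markers were above 0, with a median log2 fold change of 0.30. All 5 erythroid markers were below 0 (median −0.43), as were all 6 endothelial markers (−0.23) and 5 adipocyte markers (−0.26). Fibroblast markers were below 0 in 6 of 7 (−0.22), Schwann cell markers in 2 of 3 (−0.53) and smooth muscle markers in 3 of 4 (−0.33). These counts are as deposited, where 79.5% of all tested genes were below 0 and the median over all tested genes was −0.14. Summed FPKM of 9 macrophage markers spanned 49.9 to 138 in K320E-skm and 45.4 to 133 in wild-type libraries, and of 7 fibroblast markers 211 to 318 and 190.3 to 545. The 6 adipocyte markers summed to 114 to 144 in K320E-skm against 104 to 257 FPKM in wild-type libraries. The fibroblast sum was highest in wild-type 1, the library in which 7 of the 10 genes reached their wild-type maximum, and the part of these cell types in the values of the 10 genes was not tested.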

How the data were processed

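The authors deposited FPKM per gene, with 48328 Ensembl IDs in 1 table of 8 libraries. The submitters' processing notes name CASAVA, TopHat2 2.0.10, Cufflinks 2.1.1 and the build mm10. FPKM are relative to all mapped fragments, so a larger mitochondrial share lowers the other genes. The kit was stranded, per the labels' protocols; the strand setting of the counting and the annotation are not stated there. GENCODE M21 (GRCm38) matched 47864 IDs. Log2(FPKM + 1) was fitted with limma 3.58.1 in R 4.3.3 with genotype and sex label and a mean-variance trend, two-sided, over 10521 genes, and adjusted by Benjamini-Hochberg; the code was tested on simulated data. Ratios had exact permutation tests. Each column header holds its own number and a sex letter, but no label says that the libraries are separate animals. If they are not, p-values cover only the spread among libraries. Named genes were the 10, the 4 most abundant of each list and the 3 closest in pattern; others are marked, and 1 gene named by this rule is not reported here. The 10 genes, the lists and the tests were chosen with earlier results of these data known. Alternatives were another pseudocount, other filters, rescalings, no sex term, a replicate block and each library left out. Rescaling to genes outside the mitochondrial genome was chosen after seeing the data.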

Additional observations from a re-analysis of the deposited data

Results flagged for a closer look

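In 37 genes and both genotypes, 74 groups of 4 libraries were searched for a library far from its group (Dixon's test at its 95% critical value), and 4 were found, where chance gives about 1 in 20 groups. In wild-type 1, Stac3 reached 103.7 FPKM, and the remaining wild-type libraries had 65.2 to 70.1 FPKM. The same library reached 174 FPKM for Jsrp1, against 120.2 to 125 FPKM, and 9.45 FPKM for Orai1, against 6.79 to 6.86 FPKM. In K320E-skm 4, Srl reached 185 FPKM, and the remaining K320E-skm libraries had 163 to 166 FPKM.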

How the results depend on the processing

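Of 711 values of single genes under alternatives 30 changed sign, and of the 665 with an adjusted p 0 passed the threshold; the cause was not tested. Genes called over the whole table numbered 2 for genotype, but 1 with no filter on low values and 1 with a filter of 5 FPKM; for the interaction they numbered 2, but 8 with no filter. The median of the 10 genes, which the choice of Jph1 and Casq1 lowers, was −0.32, but −0.13 after median-ratio rescaling and −0.14 after rescaling to genes outside the mitochondrial genome; for the other 8 it was −0.28, −0.085 and −0.10. Under these 2 rescalings, in that order, the genotype difference turned positive for Jsrp1 (0.058 and 0.043), Hrc (0.028 and 0.014), Srl (0.028 and 0.013), Tcap (0.036 and 0.022), Myom1 (0.11 and 0.099) and Orai1 (0.069 and 0.056), and under the first for Stim1 (0.011). Quantile normalization gave 0.029 for Tcap and 0.037 for Orai1. For the sex label, Casq1 went to −0.017 under quantile normalization and −0.020 under rescaling to genes outside the mitochondrial genome, and Trdn to −0.096 and −0.13. With each library left out in turn, genotype calls ranged from 1 to 2, sex label calls from 0 to 5 (5 without K320E-skm 4) and interaction calls from 1 to 7 (7 without wild-type 4). The genotype difference then ranged from −0.034 to 0.077 for Cacnb1, −0.54 to 0.057 for Casq2, −0.099 to 0.11 for Cacng1 and −0.24 to 0.011 for Myom1, and the sex label difference of Trdn from −0.047 to 0.15. The log2 ratio differences ranged from −0.089 to 0.030 for Cacna1s/Ryr1, −0.093 to 0.0024 for Stac3/Cacna1s and −0.29 to 0.16 for Casq2/Ryr1. Deviations of libraries with the same replicate number correlated at 0.156, 0.0233, 0.0442 and 0.0395, and those of libraries with different numbers at −0.130 to 0.0905. These ranges overlapped, and the values do not settle whether the numbers pair the samples. The main fit did not pair them. With a replicate block in place of the sex term, the number of genes called for genotype was again 2. Whether these were the same genes was not compared. No single gene with an adjusted p changed its call. For the ratios the block test rests on 4 differences and cannot reach a p of 0.05, so it could not change a call. Absolute depth is unknown, so no limit from counting error can be given.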
